A study of Mus musculus with 18 samples.

Results

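Among 45267 regular probes on the MouseWG-6 v2.0 bead array (Illumina), 139 had their highest signals in regulatory T (Treg) cells of brown adipose tissue (BAT) and in no other sorted population of this study. They were chosen by their measured values. On log2 intensities that were quantile-normalized together without background correction, the lowest of the 6 BAT Treg arrays had to lie above the highest of the other 12 arrays, and the mean of the 6 had to exceed the mean of the 12 by at least 0.5. Probes for which all 3 spleen Treg arrays lay above all 3 spleen conventional T (Tconv) arrays were then dropped. Probes higher in spleen Treg than in spleen Tconv cells on average could stay in the set where single arrays overlapped. Separation and the minimum difference together left 163 probes, and 24 of these were dropped.

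The 18 arrays formed 6 groups of 3. Treg and Tconv cells were sorted from BAT of mice held at 30°C (warm BAT), from BAT of mice moved to 12°C (cold BAT), and from the spleen of mice held at 30°C. All samples came from the C57BL/6 background. The sample labels give the genotype Foxp3-GFP-DTR-CD90.1 for every sample and define Treg cells as CD4+CD25+Foxp3+ and Tconv cells as CD4+Foxp3-, whereas the methods name female wild-type mice, bought at 8 weeks of age, kept for 2 weeks at 30°C and, for cold BAT, for 2 days at 12°C, and a sort by CD4 and CD25. Which description holds cannot be read from the signals. Organs were pooled before sorting, and the spread between replicates is therefore not that between single mice. The small amount of RNA from the sorted cells was amplified before labeling.

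Treg cells are CD4+ T cells that restrain immune responses, and the transcription factor Foxp3 sets and keeps their identity. Treg cells that reside in fat and other tissues carry transcripts that Treg cells of lymphoid organs carry little of, beside the program common to all Treg cells. Brown fat burns fuel to make heat, and cold activates it through sympathetic nerves. The deposited table identifies probes by Illumina identifiers and pairs none of them with a gene, and a probe annotation was not used here. The 139 probes are therefore described by their identifiers and signals, without gene names, functions or sequences, and the labelled cell types could not be checked against marker genes.

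Each of the 3 BeadChips carried 6 arrays of 1 tissue and temperature, 3 Treg and 3 Tconv. A difference between Treg and Tconv cells of BAT was thus measured within a BeadChip, while any contrast of tissue or of temperature was also a contrast of BeadChips, and the 2 cannot be told apart. On every BeadChip the Tconv cells were at positions A to C and the Treg cells at positions D to F. Cell type and position on the BeadChip therefore cannot be told apart either. The share of all probes above background, meaning above the 95th percentile of the 936 negative control probes of the same array, ranged from 8.93% to 25.4%. It was highest on replicate 1 of the cold BAT Treg cells. No 2 arrays held identical values, and the highest correlation between any 2 was 0.93 across the tested probes.

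The levels given below are log2 signals corrected for background with the negative controls, offset by 16 and quantile-normalized, and all differences are log2 differences of these signals unless stated otherwise. Averaged over the 139 probes, the level was 7.25 ± 0.10 (SD, n = 3) in warm BAT Treg cells and 7.39 ± 0.15 (SD, n = 3) in cold BAT Treg cells. It was 5.86 ± 0.08 in warm BAT Tconv cells and 5.87 ± 0.07 in cold BAT Tconv cells. In the spleen it was 5.45 ± 0.02 in Treg cells and 5.32 ± 0.06 in Tconv cells. The 6 BAT Treg arrays thus stood apart from the rest, as the choice of the probes requires, and the BAT Tconv arrays stood between them and the spleen arrays. Within the BAT Treg arrays, the average was 7.37, 7.19 and 7.20 in the warm replicates 1 to 3 and 7.50, 7.44 and 7.21 in the cold replicates, so the warm and cold arrays overlapped.

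**Figure D1:**
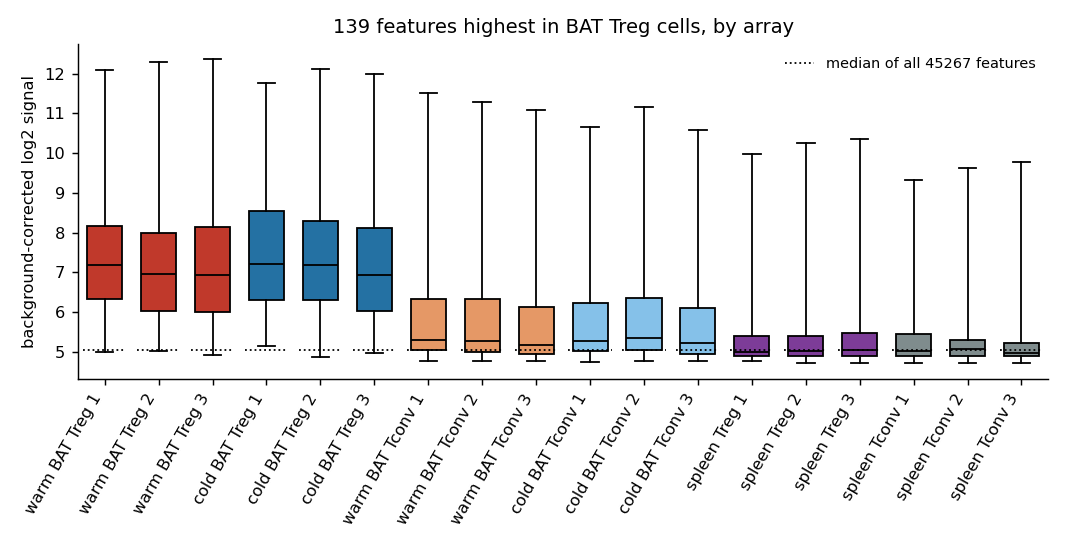
Background-corrected log2 signals of the 139 probes on each of the 18 arrays. Boxes span the quartiles with the median as a line, whiskers reach the lowest and highest probe, and the dotted line marks the median of all 45267 probes on that array. Medians lie between 6.93 and 7.21 on the BAT Treg arrays, from 5.17 to 5.35 on the BAT Tconv arrays, and from 4.98 to 5.07 on those of the spleen, where the dotted line is at 5.04.

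Most of the 139 probes were dim outside BAT Treg cells. The median probe had a level of 6.96 in warm and 7.00 in cold BAT Treg cells, 5.28 and 5.29 in warm and cold BAT Tconv cells, and 5.04 and 5.08 in spleen Treg and Tconv cells, beside a median of 5.04 for all regular probes. In warm BAT Treg cells 101 probes were above background on all 3 arrays and 11 on none, and in cold BAT Treg cells 102 were above background on all 3 arrays and 2 on none. In BAT Tconv cells 27 (warm) and 30 (cold) probes were above background on all 3 arrays, and 83 and 89 on none. In spleen cells 11 (Treg) and 4 (Tconv) probes were above background on all 3 arrays, and 114 and 120 on none. By array, 78% to 96% of the 139 probes were above background in BAT Treg cells, beside 16% to 25% of all regular probes. In BAT Tconv cells these shares were 25% to 35% and 13% to 17%, and in spleen cells 6% to 14% and 9% to 13%. Being dim outside BAT Treg cells was thus common to most regular probes.

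By where their signal rose above background, the probes fell into 4 classes. A first class of 32 probes was above background on all 6 BAT Treg arrays and on none of the other 12, with median levels of 6.80 and 6.91 in warm and cold BAT Treg cells and between 5.02 and 5.23 in the other groups. A second class, also of 32 probes, was above background on all 6 BAT Treg arrays and on at least 1 BAT Tconv array but on no spleen array. Its median levels were 7.85 and 8.05 in warm and cold BAT Treg cells, 6.10 and 5.99 in BAT Tconv cells, and 5.22 and 5.21 in spleen Treg and Tconv cells. A further class of 27 probes was above background on all 6 BAT Treg arrays and on at least 1 spleen array. It held the brightest probes, with medians of 8.86 and 9.22 in BAT Treg, 7.52 and 7.21 in BAT Tconv, 6.79 in spleen Treg and 6.10 in spleen Tconv cells. Every one of these 27 probes was also above background on at least 1 BAT Tconv array. The remaining 48 probes were not above background on all 6 BAT Treg arrays and had the smallest median difference on the scale of the rule, 0.68 (0.51 to 1.07). By the deposited detection p-value, which 18.7% to 24.9% of the negative controls also passed on each array, the first class held 15 probes in place of 32.

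The separation itself was narrow for most probes. On the scale of the rule, the mean of the 6 BAT Treg arrays exceeded the mean of the other 12 by a median of 0.86 (0.51 to 2.58), by more than 1 for 53 probes and by more than 2 for 6 probes. The gap between the lowest BAT Treg array and the highest of the other arrays had a median of 0.13 (0.00029 to 1.94) and exceeded 1 for 3 probes. Just inside the minimum difference lay probes at 0.510, 0.512 and 0.517, and just outside it lay separated probes at 0.497, 0.493 and 0.493. In all, 27 separated probes missed the minimum difference, and 813 probes reached it without being separated.

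**Figure D2:**
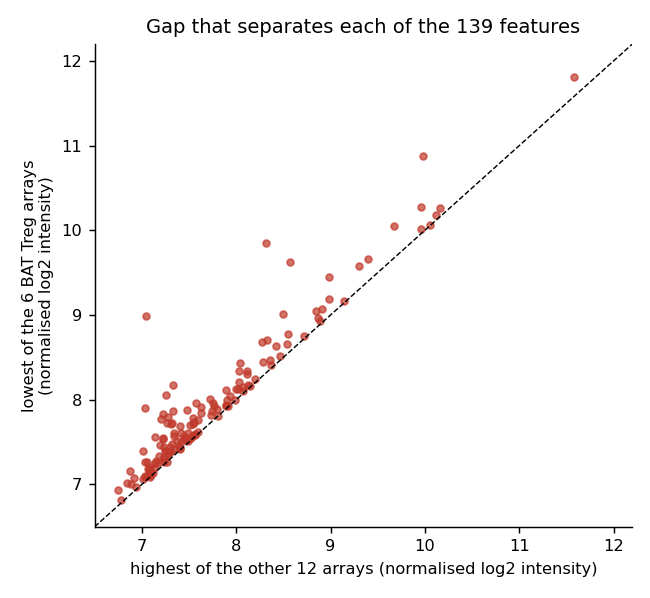
For each of the 139 probes, the lowest normalised log2 intensity among the 6 BAT Treg arrays (vertical) against the highest among the other 12 arrays (horizontal), on the scale of the rule. All points lie above the dashed line of equal values because the rule requires it. The median distance above the line is 0.13, and the 3 points more than 1 above it stand apart.

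The array that came closest to the BAT Treg arrays was most often a BAT Tconv array. The highest of the other 12 values came from cold BAT Tconv cells for 60 probes, from warm BAT Tconv cells for 47, from spleen Treg cells for 21 and from spleen Tconv cells for 11. The rule had dropped probes whose spleen Treg arrays all lay above the spleen Tconv arrays, which can lower the count for spleen Treg cells. The lowest BAT Treg value came from a warm array for 67 probes and from a cold array for 72. Replicate 3 of the cold BAT Treg cells was the lowest for 30 probes, and its values for the 139 probes lay on average 0.17 below the mean of its group. It was also the BAT Treg array with the smallest share of all probes above background, at 15.7%.

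Each signal is a mean over beads, which gives the technical error of a single array. A probe was read on a median of 38 beads per array, and on no fewer than 18. The standard error over beads had a median of 0.064 in log2 for the 139 probes on a BAT Treg array. Between BAT Treg arrays of the same temperature, the SD on the scale of the rule had a median of 0.27 for the 139 probes and 0.16 for all tested probes. The spread between arrays thus exceeded the bead error. The bead error still mattered for the gap that separates a probe. For 54 of the 139 probes that gap was under 1 combined bead standard error of the 2 arrays that set it. It was over 2 such errors for 52 probes.

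Each BAT Treg array could be compared with probes chosen without it. Choosing on the other 17 arrays gave 175, 166 and 162 probes without the warm replicates 1, 2 and 3, of which 77.7%, 86.8% and 86.4% also lay above the highest of the 12 other arrays in the array left out. Without the cold replicates 1, 2 and 3 the choice gave 157, 151 and 214 probes, of which 86.6%, 90.1% and 63.1% did so. Among all regular probes, the same array lay above the highest of the 12 for 8.98%, 6.86% and 6.36% (warm) and 11.9%, 7.87% and 8.49% (cold). The lowest share, again, belonged to the cold replicate 3. The same 12 arrays both chose the probes and set the bar for the array left out, which raises the shares of the chosen probes. All regular probes were not chosen in this way, so their shares are no fair yardstick. All arrays had been quantile-normalized together, and the array left out shared its BeadChip and its group with arrays used for the choice. These shares are therefore descriptions without a test.

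The differences that the rule used are given as descriptions. The median probe was 1.30 higher in Treg than in Tconv cells of warm BAT and 1.43 higher in cold BAT, with more than 2-fold for 95 and 111 of the 139 probes. Against spleen Treg cells, the median difference was 1.60 for warm and 1.69 for cold BAT Treg cells, with more than 2-fold for 109 and 121 probes. Many of the lower values lay at background, where a fold is only a bound. When a group with no array above background was set, array by array, to the lowest signal above background on that array or to its own signal where that was higher, at least 2-fold remained for 65 and 63 probes against BAT Tconv cells and for 55 and 54 probes against spleen Treg cells.

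In the spleen, Treg and Tconv cells had near equal levels of the median probe, with a difference of 0.02 (-1.37 to 2.29). The difference was within 0.5 for 117 probes, above 0.5 for 19, of which 9 exceeded 1, and below -0.5 for 3. The rule had removed probes whose spleen Treg arrays all lay above the spleen Tconv arrays, and the 24 probes removed had medians of 8.62 and 8.30 in warm and cold BAT Treg cells, 6.54 and 5.74 in BAT Tconv cells, and 6.63 and 5.15 in spleen Treg and Tconv cells.

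With the roles turned, 20 probes met the rule for BAT Tconv cells, that is, all 6 BAT Tconv arrays above the other 12 with the same minimum difference and with probes higher in all spleen Tconv than in all spleen Treg arrays dropped. Before the drop there were 24 of these, against 163 for BAT Treg cells.

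The probe with the largest difference and the widest gap, ILMN_2778289, was bright in BAT Treg cells and at background everywhere else. Its levels were 9.65, 8.81 and 8.55 in warm and 9.26, 9.33 and 8.67 in cold BAT Treg cells. On the other 12 arrays they ranged from 4.77 to 5.05, and none of these was above background. Its signal was at least 8.87-fold higher in Treg than in Tconv cells of warm BAT and at least 8.30-fold higher in cold BAT, by the floor described above. Against spleen Treg cells it was at least 6.55-fold higher in warm and at least 6.91-fold higher in cold BAT Treg cells.

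ILMN_2944755 had the next largest difference and was brighter, with levels of 9.71, 10.30 and 10.05 in warm and 9.64, 9.71 and 9.92 in cold BAT Treg cells. In BAT Tconv cells it had levels of 5.22, 5.66 and 6.49 (warm) and 5.59, 5.57 and 6.02 (cold), of which only the highest was above background. In spleen Treg cells its levels were 5.34, 7.02 and 7.50, and in spleen Tconv cells 5.28, 5.59 and 5.08. The spleen Treg replicates 2 and 3 were above background while replicate 1 was among the spleen Tconv values, and this overlap kept the probe in the set.

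The 15 probes with the largest differences ranged from 1.62 to 2.58 on the scale of the rule, and ILMN_2778289 was the only one of them at background on all of the other 12 arrays. The brightest of the 139 probes, ILMN_2622983, was bright in every group. Its levels were 12.10, 12.29 and 12.36 in warm and 11.76, 12.13 and 12.00 in cold BAT Treg cells, 11.52, 11.29 and 11.10 in warm and 10.66, 11.15 and 10.59 in cold BAT Tconv cells. In the spleen they were 8.49, 10.26 and 10.37 in Treg and 8.94, 7.07 and 9.77 in Tconv cells. The BAT Tconv arrays thus all lay above the spleen arrays, which spread widely among themselves. At the other end, the dimmest of the 139 probes averaged 5.32 over the 6 BAT Treg arrays.

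**Figure D3:**
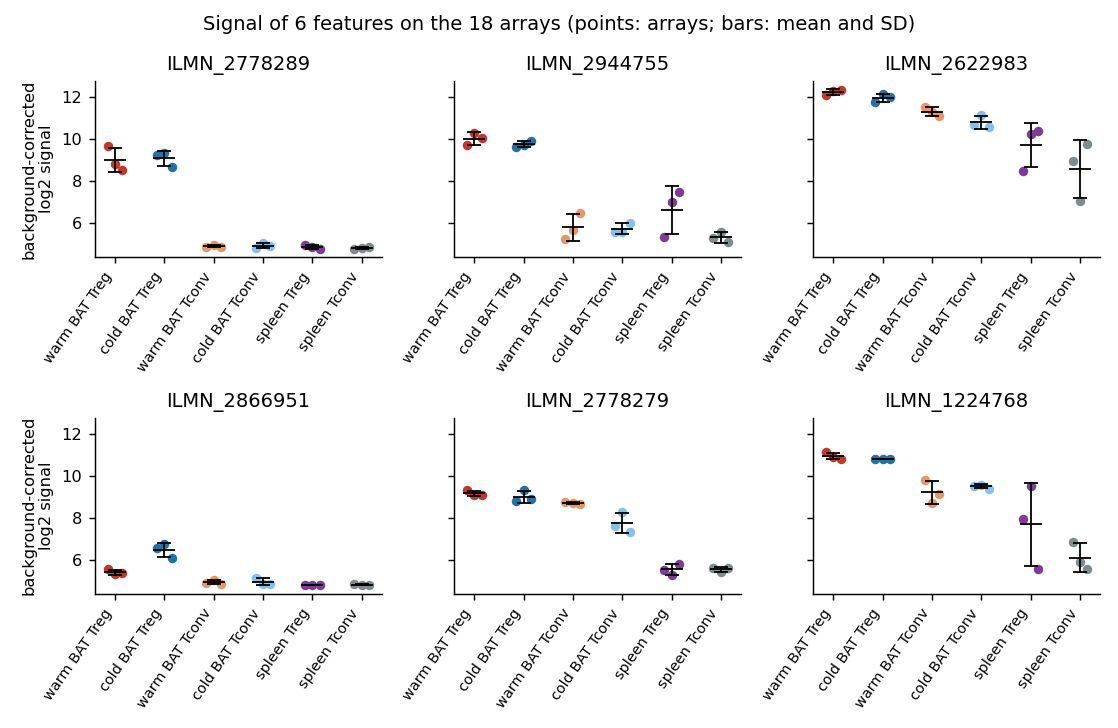
Background-corrected log2 signals of 6 of the 139 probes. Points are arrays, 3 in each group, and bars give the mean and SD. ILMN_2778289 is near 5 outside BAT Treg cells, while ILMN_2622983, ILMN_2778279 and ILMN_1224768 are also high in BAT Tconv cells. ILMN_2866951 has means of 5.40 in warm and 6.46 in cold BAT Treg cells.

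The rule compared neither cold with warm BAT nor Tconv cells of BAT with those of the spleen, and these comparisons were tested with limma over 17395 probes detected in at least 1 group. Of the 139 probes, 135 were among them. The other 4 averaged 5.32 to 5.87 over the BAT Treg arrays and were not detected on all 3 arrays of any group. Through the detection p-value, 127 probes passed in both warm and cold BAT Treg cells, 5 in the warm and 3 in the cold alone. Calls required a difference above 2-fold together with an adjusted p under 0.05. Nothing in the labels says whether replicates came from separate pools or experiments, and p-values measure only the spread between these samples.

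The first question was whether cold exposure changed the signals in BAT Treg cells. Between cold and warm BAT Treg cells, 1 of the 135 probes was called higher in the cold and none was called lower, beside 0.0747% higher and 0.0115% lower among all tested probes. ILMN_2866951, the probe called, had levels of 5.54, 5.30 and 5.35 in warm and 6.55, 6.73 and 6.09 in cold BAT Treg cells. The cold arrays all lay above the warm ones, and only the cold ones were above background. The fitted difference was 1.06 (standard error 0.16, limma adjusted p = 0.0269), and the signal was at least 1.64-fold higher in the cold against the floor. On the other 12 arrays the probe had levels between 4.78 and 5.15, none above background. It stayed called in 6 of 14 alternative settings, with adjusted p from 0.00047 to 0.644, and it fell short when either warm replicate 2 or 3 or cold replicate 1 or 2 was left out, with adjusted p from 0.0256 to 0.0637 and a difference of 0.92 without cold replicate 2.

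Across the 135 probes, the cold minus warm difference in BAT Treg cells had a median of 0.12 (-0.96 to 1.20), while all tested probes had a median of -0.04. It was positive for 86 probes and negative for 49. An unadjusted p under 0.05 was reached by 16 of the 135 probes in the higher direction (11.9%, beside 3.24% of all tested probes) and by 7 in the lower (5.19%, beside 2.75%). These comparisons lie between BeadChips. The fit used 1 spread per probe for all 6 groups. The median SD of the 139 probes was 0.37 in warm and 0.51 in cold BAT Treg cells, and from 0.12 to 0.21 in the other groups. Limma p-values for BAT Treg cells, also in the interaction below, can therefore be too small for these probes. Their excess over all tested probes is a description only. With only the compared groups in the fit, ILMN_2866951 had a limma adjusted p of 0.532. Without replicate 3 of the cold BAT Treg cells, which lay below the other cold arrays for these probes, 5 were called higher. Without warm replicate 3, no probe was called. Without warm replicate 2 the 1 call was another probe and was lower in the cold, and without cold replicate 1 or 2 the 1 call was again another probe than ILMN_2866951, higher in the cold.

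In BAT Tconv cells, none of the 135 probes was called between cold and warm by limma, beside 0% higher and 0.00575% lower among all tested probes. The median difference was 0.03 (-1.24 to 1.44), and the smallest adjusted p was 0.494. An unadjusted p under 0.05 was reached by 5 probes in the higher direction (3.70%, beside 2.57% of all tested probes) and by 8 in the lower (5.93%, beside 1.81%). All 135 probes had passed the filter through BAT Treg arrays, and 76 of them were above background on none of the 6 BAT Tconv arrays, so that a change in Tconv cells could not be measured for these. The 20 probes above background on all 6 BAT Tconv arrays had differences from -0.97 to 0.80, with a median of 0.08. Whether the response to cold differed between Treg and Tconv cells was tested as an interaction, in which a shift common to all arrays of a BeadChip cancels. None of the 135 probes was called by limma, and neither was any other, at 0% in both directions. The median interaction was 0.11, the smallest adjusted p was 0.412, and an unadjusted p under 0.05 was reached by 11 probes with the larger value in Treg cells (8.15%, beside 1.94% of all tested probes) and by 2 with the smaller (1.48%, beside 2.01%). For the 76 probes at background in BAT Tconv cells, 10 of these 13 among them, the interaction largely repeats the difference in Treg cells. The 20 probes above background on all 6 BAT Tconv arrays had a median interaction of 0.01, and 1 of them had an unadjusted p under 0.05. For ILMN_2866951 the interaction was 1.03 (standard error 0.22, limma adjusted p = 0.412), and its Tconv arrays were all at background. The methods' t-test, here with Benjamini-Hochberg adjustment, called none in either comparison within a cell type. For these arrays the paper counted changes above 2-fold at p under 0.05 and named no adjustment. Its list of genes changed by cold in BAT Treg cells could not be matched to probes here.

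**Figure D4:**
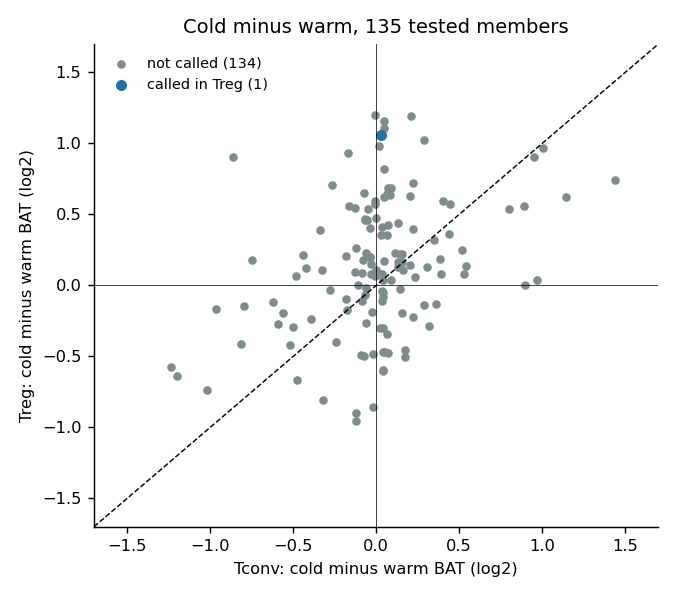
Cold minus warm BAT log2 difference in Treg cells (vertical) against that in Tconv cells (horizontal) for the 135 tested probes, with the dashed line of equal differences. The 1 probe called in Treg cells, in blue, lies at 1.06 in Treg and 0.03 in Tconv cells.

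The next question was whether the signals of the 139 probes also differed between the tissues in Tconv cells. Between warm BAT and spleen Tconv cells, 14 of the 135 probes (10.4%) were called higher in BAT and none lower, beside 1.9% higher and 0.759% lower among all tested probes. The difference had a median of 0.20 (-0.22 to 3.15) and was positive for 114 probes, while the median of all tested probes was -0.03. An unadjusted p under 0.05 was reached by 35 probes, all higher in BAT, or 25.9%, beside 9.57% higher and 9.78% lower among all tested probes. The BAT Tconv arrays shared tissue and BeadChip with BAT Treg arrays, which the rule required to lie above the spleen arrays. All tested probes were not chosen in this way, so their shares are no fair yardstick for the 135. Of the 135 probes, 78 were above background on no warm BAT Tconv and no spleen Tconv array, so that a difference could not be measured for them. The count called was 7 without warm BAT Tconv replicate 1, 6 without replicate 2 and 8 without spleen Tconv replicate 2.

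Between cold BAT Tconv cells and the same spleen Tconv arrays, 13 of the 135 probes (9.63%) were called higher in BAT and none lower, beside 0.926% and 0.236% of all tested probes. The median difference was 0.21 (-0.28 to 3.40), and 31 probes, all higher, had an unadjusted p under 0.05, or 23.0%, beside 7.17% higher and 6.19% lower among all tested probes. Here 85 probes were above background on no array of either group. The count was 6, 5 and 7 without cold BAT Tconv replicates 1, 2 and 3 and 7 without spleen Tconv replicate 2. The shares of all tested probes are no fair yardstick here either, for the same reason. Both comparisons share the spleen arrays, and 9 probes were called in both. The spleen arrays came from warm mice, so tissue and temperature both differ in the second comparison.

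Of the 14 probes called with warm BAT, all were above background on all 3 warm BAT Tconv arrays, and 8 were above background on no spleen Tconv array. Against the floor, those 8 were at least 1.09-fold to at least 4.94-fold higher, and 3 of them at least 2-fold. ILMN_2778279 had the largest difference, with levels of 8.76, 8.70 and 8.64 in warm BAT Tconv and 5.61, 5.42 and 5.63 in spleen Tconv cells. Its signal was at least 4.94-fold higher (fitted difference 3.15, standard error 0.22, limma adjusted p = 1.12e-05). In warm BAT Treg cells its levels were 9.31, 9.10 and 9.06, only 0.46 above Tconv cells on average, and in spleen Treg cells 5.52, 5.27 and 5.81. In cold BAT it had levels of 7.62, 8.26 and 7.32 in Tconv and 8.78, 9.31 and 8.89 in Treg cells. The probe thus separated BAT from spleen in both cell types, and its gap on the scale of the rule was 0.01.

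ILMN_1224768 came next with warm BAT and first with cold BAT. Its levels were 9.78, 8.73 and 9.11 in warm BAT Tconv cells, 9.53, 9.57 and 9.39 in cold BAT Tconv cells, and 6.86, 5.89 and 5.55 in spleen Tconv cells. The fitted differences were 3.11 for warm BAT (standard error 0.67, limma adjusted p = 0.0233) and 3.40 for cold BAT (standard error 0.67, limma adjusted p = 0.0233). Both calls were lost in 7 of 14 alternative settings. In spleen Treg cells its levels were 7.96, 9.53 and 5.55, which span the range from its spleen Tconv to its BAT Tconv levels. In BAT Treg cells all 6 arrays lay between 10.78 and 11.12.

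The 14 probes called in warm BAT Tconv cells were the brighter ones. Their median levels were 9.18 and 9.38 in warm and cold BAT Treg cells, 7.79 and 7.83 in warm and cold BAT Tconv cells, and 5.79 and 5.49 in spleen Treg and Tconv cells. The other 125 probes had medians of 6.83 and 6.91 in BAT Treg cells, 5.19 and 5.23 in BAT Tconv cells and 5.02 and 5.04 in spleen Treg and Tconv cells. Across the 139 probes, the warm BAT minus spleen difference was larger in Treg than in Tconv cells for 133. The rule largely fixes this count. It set BAT Treg above BAT Tconv cells for every probe and dropped probes whose spleen Treg arrays all lay above the spleen Tconv arrays. In 25 probes the Tconv difference exceeded 0.5 times the Treg difference. Pearson's r between the differences was 0.54 and Spearman's rho 0.51 over the 139 probes, which share arrays and BeadChips and are not independent. Fewer cells of a kind within a sort and less RNA per cell cannot be told apart in these bulk samples.

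**Figure D5:**
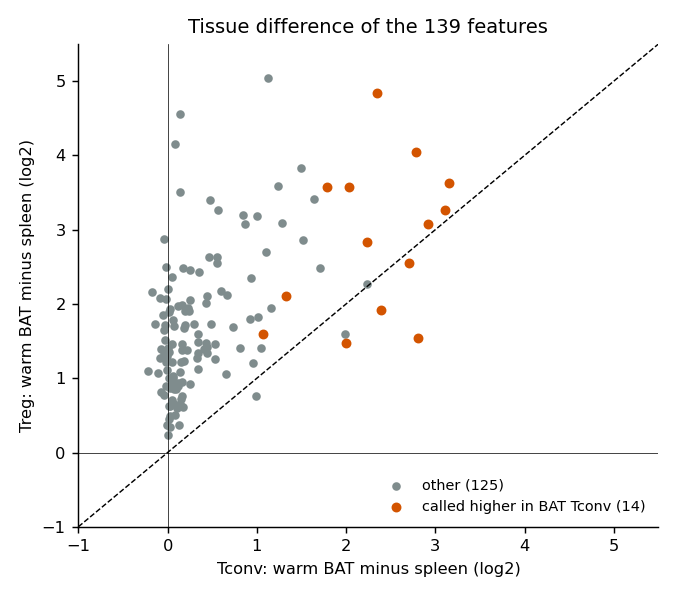
Warm BAT minus spleen log2 difference in Treg cells (vertical) against that in Tconv cells (horizontal) for the 139 probes. The 14 probes called higher in BAT Tconv cells are orange, and points above the dashed line, 133 of 139, have the larger difference in Treg cells. The choice of the probes largely fixes this count. Most of the other 125 lie near 0 in Tconv cells, with a median of 0.16.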

How the data were processed

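The authors deposited 1 table with the mean bead intensity of each probe on each array, without normalization or background correction per the file headers and values, with the SD and number of beads and a detection p-value. A further 36 columns of outlier and bad beads were not used. Columns were matched to samples by the labels.

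For the rule, log2 intensity was quantile-normalized. All other values used limma 3.58.1 in R 4.3.3 (neqc, 936 negative controls, offset 16). Tests covered probes that passed a detection p-value of 0.05 in every replicate of any group, in 1 fit with 6 group means (12 residual degrees of freedom), with Benjamini-Hochberg adjustment over 17395 probes. The script was tested on simulated data. The number of arrays limits the precision. With 3 arrays per group an exact two-sided permutation p cannot go below 0.1.

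The members, lists and tests were chosen with earlier results of these data known. The rule for named probes allowed the 15 largest differences, up to 10 called per comparison, the 3 on either side of the minimum difference, and the dimmest and brightest. Without gene names, few were named, and the planned gene lists, cell type markers and promoter motifs could not be used. The alternatives tried were an offset of 50, uncorrected background, median scaling, no or a stricter filter, a replicate block, only the groups compared, the methods' t-test, and each array left out. All of these, the t-test among them, used the same adjustment and the same 2-fold minimum for a call. Differences of the members under other settings and the background measure were added after seeing the data. Figures used Python 3.11.15 and matplotlib 3.10.9.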

Additional observations from a re-analysis of the deposited data

How the results depend on the processing

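The set held 84 probes without normalization (59 shared with the 139), 195 with median scaling in place of quantiles (126 shared) and 151 on background-corrected signals (138 shared). It held 53 with a minimum difference of 1, and 130 to 214 with 1 array left out, the highest without cold BAT Treg replicate 3 (133 shared). Probes called between cold and warm BAT Treg cells, 1 in the reported setting, numbered 0 without background correction, with an offset of 50, with only the groups compared and with the methods' t-test, 3 with median scaling, and 0 to 5 with 1 array left out. Between cold and warm BAT Tconv cells the count was 0 in every setting run. The interaction gave 0 to 1 with 1 array left out, the 1 without cold BAT Treg replicate 3. Between warm BAT and spleen Tconv cells the count of 14 became 22 with median scaling, 9 without a filter, 6 with only the groups compared, 1 with the methods' t-test and 6 to 16 with 1 array left out. Between cold BAT and spleen Tconv cells the count of 13 became 7 with an offset of 50, 6 without a filter, 6 with only the groups compared, 0 with the methods' t-test and 5 to 15 with 1 array left out. No filter tests more probes, and fewer groups change both the residual degrees of freedom and the estimate of the spread. Why the counts moved was not tested for any setting. In the comparisons that called them, ILMN_2866951, ILMN_2778279 and ILMN_1224768 kept their direction in every setting run. The other probes named above were not followed through the settings. Without warm BAT Treg replicate 2, however, the 1 call between cold and warm BAT Treg cells was a different probe, lower in the cold, and without cold BAT Treg replicate 1 or 2 it was a different probe, higher in the cold.

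The mean difference of the 139 probes between BAT Treg and BAT Tconv cells, 1.46 in the reported setting, was 0.85 without background correction, 1.06 with an offset of 50, 1.76 with median scaling and 1.42 to 1.48 with 1 array left out. Against spleen Treg cells, the mean difference of 1.87 became 1.12, 1.34, 2.25 and 1.83 to 1.90 in the same settings. Whether replicate numbers pair the samples is not known. No 2 groups had correlations over 0.1 for all 3 numbers. Between Treg and Tconv cells with the same number, the mean correlation was 0.11 in warm BAT, 0.05 in cold BAT and 0.03 in the spleen. Between warm BAT Treg and spleen Treg cells, which the paper's supplement describes as taken from the same mice, it was 0.01. With the replicate number as a block the 5 comparisons, in the order above, gave 1, 0, 0, 15 and 12 calls. Signal over background limits the 48 probes that were not above background on all 6 BAT Treg arrays.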
